A study of Mus musculus with 16 samples.

Results

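Transcripts of 10 genes that put peptides on MHC class I molecules were followed in pulmonary endothelial cells (ECs) of mice with lipopolysaccharide (LPS) induced acute lung injury. The genes were chosen by symbol: the heavy chains H2-K1 and H2-D1, their partner B2m, the transporter and loading genes Tap1, Tap2 and Tapbp, the immunoproteasome subunits Psmb8, Psmb9 and Psmb10, and the regulator Nlrc5, out of 54532 genes in the deposited tables. All 10 passed the filter on low values in both experiments. In the first experiment, male wild-type C57/BL6J mice aged 8 weeks received saline (n = 4 libraries) or 10 mg/kg LPS (n = 6) into the trachea. In the second, Fgfr1 loxP/loxP mice (n = 3) were compared with Fgfr1 iΔEC/iΔEC mice (n = 3), in which VE-cadherin-CreERT2 deletes the receptor Fgfr1 in endothelium. Both genotypes received tamoxifen and then 2 mg/kg LPS, so that the second experiment has no saline group. Lungs of both experiments were taken at 24 h. ECs were obtained with magnetic beads, by removing CD45+ cells and then selecting CD31+ cells, and bulk RNA was sequenced. Each saline library held between 13478726 and 18807007 reads on genes, each LPS library 17840221 to 19043015, each loxP/loxP library 15969575 to 17002788 and each iΔEC/iΔEC library 16642177 to 16943522. The least covered of the 10 genes, Nlrc5, still had 528 reads in its lowest library. The part of counting error in the spread between libraries was not tested. The study's methods call the loxP/loxP controls littermates of the iΔEC/iΔEC mice, but which libraries came from the same litter, cage or preparation was not given in the sources used here, so p-values measure only the spread between these libraries.

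MHC class I molecules display short peptides from proteins made inside the cell to CD8+ T cells. The proteasome cuts the proteins, the TAP transporter carries the peptides into the endoplasmic reticulum, and tapasin holds empty class I molecules at the transporter until a peptide fits. Under interferon, the catalytic subunits Psmb5, Psmb6 and Psmb7 of newly built proteasomes are replaced by Psmb8, Psmb9 and Psmb10, which gives the immunoproteasome. Nlrc5 is the class I transactivator, and works on a promoter module, called the SXY module, that class I genes and B2m share. Nearly all nucleated cells express class I molecules, endothelial cells and leukocytes included.

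Of the 10 genes, 7 lie in the MHC region of chromosome 17 in the annotation of the deposited tables (GRCm38), all protein coding: Tapbp (chr17:33915899-33929288, plus strand), H2-K1 (chr17:33996017-34000333, minus), Psmb9 (chr17:34181988-34187764, minus), Tap1 (chr17:34187553-34197225, plus), Psmb8 (chr17:34197721-34201454, plus), Tap2 (chr17:34203527-34216321, plus) and H2-D1 (chr17:35262730-35267499, plus). B2m (chr2:122147686-122153083, plus), Psmb10 (chr8:105935735-105938444, minus) and Nlrc5 (chr8:94434356-94527272, plus) lie elsewhere. Psmb9 and Tap1 are transcribed away from each other and their annotated starts overlap by 212 bases on opposite strands. Reads there cannot be told apart without strand, and the strand setting of the counting was not given in the sources used here. Tapbp also overlaps Zbtb22 and Nlrc5 overlaps Mir7072 on the same strand, where strand would not part the reads. On the opposite strand, B2m overlaps Patl2, Tap2 and Psmb8 overlap Gm20496, and Tapbp, Psmb10 and Nlrc5 overlap other genes. Of all 50-base windows along the longest coding transcript of H2-K1, 8.79% also occurred in transcripts of other genes, and 14.3% for H2-D1, most often H2-D1 for the former and H2-Q1 for the latter. How shared reads were assigned was not given in the sources used here, so the split between these heavy chains carries that uncertainty, whereas no window of B2m, Psmb8, Psmb9, Psmb10 or Nlrc5 was shared.

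Start-site windows, from 250 bases before to 50 bases after the start, were listed by RefSeq (GRCm38.p6) for 8 of the 10 genes, and were searched on both strands for 4 motifs. These were GAAANNGAA, the core of the interferon-stimulated response element (ISRE), TTCNNNGAA, the gamma-activated sequence (GAS) of interferon-gamma responses, CCAAT, bound by NF-Y, and TGACG, the core of the cyclic AMP response element. Only exact matches were counted, so a window without a match can still hold a variant of such an element. No matches overlapped in these windows. The ISRE core was found for 1 of the 8 genes (B2m) and in 8.56% of all 32851 windows. GAS was found for 1 (Psmb8) and in 8.30% of all windows, CCAAT for 6 and in 37.4%, and TGACG for 5 and in 20.8%. The windows of Psmb9 and Tap1 share 275 of their bases, and their CCAAT and TGACG matches are the same bases read from opposite strands, so that each of these counts holds 1 site under both genes. The bases just before the start sites are shown because H2-K1, H2-D1 and B2m carried TGACG and the reversed CCAAT box (ATTGG) in the same order and at the same spacing, with capitals marking every match to the 4 motifs. The coordinates are chr17:34000334-34000483 on the minus strand for H2-K1, chr17:35262944-35263093 on the plus strand for H2-D1 and chr2:122147537-122147686 on the plus strand for B2m.
H2-K1: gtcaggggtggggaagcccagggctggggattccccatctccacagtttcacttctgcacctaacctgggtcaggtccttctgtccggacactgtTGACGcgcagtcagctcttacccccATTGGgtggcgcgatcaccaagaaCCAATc
H2-D1: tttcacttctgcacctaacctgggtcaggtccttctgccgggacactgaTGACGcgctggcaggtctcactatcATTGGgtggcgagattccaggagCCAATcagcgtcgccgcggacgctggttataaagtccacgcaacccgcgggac
B2m: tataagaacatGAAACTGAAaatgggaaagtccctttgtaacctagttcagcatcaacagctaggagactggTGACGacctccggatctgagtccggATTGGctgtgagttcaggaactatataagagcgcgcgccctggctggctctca

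In each of these 3 stretches the first base of TGACG stood 25 bases before the first base of ATTGG. That arrangement, searched after the matches had been seen, was present in 31 of the 32851 windows (0.0944%), in either orientation, and among the 10 genes in these 3 alone of the 8 with a window. The GAS match of Psmb8 and the shared start region of Psmb9 and Tap1 are shown next, since Psmb8 and Tap1 rose in LPS and Psmb9 did not pass. The Psmb8 stretch is chr17:34198045-34198194, and the 225 bases between the RefSeq start sites of Psmb9 and Tap1 are chr17:34187331-34187555, both printed on the plus strand. The annotation of the deposited tables begins Psmb8, H2-D1 and Psmb9 further upstream, so these stretches fall inside those gene bounds.
Psmb8: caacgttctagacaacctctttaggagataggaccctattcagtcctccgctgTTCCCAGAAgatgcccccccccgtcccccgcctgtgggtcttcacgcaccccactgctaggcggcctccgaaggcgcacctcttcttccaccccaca
Psmb9 and Tap1: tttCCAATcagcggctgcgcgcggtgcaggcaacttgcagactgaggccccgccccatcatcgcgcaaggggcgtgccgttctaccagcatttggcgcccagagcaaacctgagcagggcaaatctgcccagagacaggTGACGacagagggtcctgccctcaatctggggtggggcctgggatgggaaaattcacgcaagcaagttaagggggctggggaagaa

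Some libraries stood apart before any comparison was made. LPS 2 was the highest of the 6 LPS libraries for 8 of the 10 genes, and saline 1 and saline 4 shared the lowest places of the saline group, with 6 and 4 genes. In the second experiment loxP/loxP 1 was the highest of its group for all 10 genes, and iΔEC/iΔEC 2 was the lowest of its group for all 10. Pecam1, which encodes CD31, was read at 234 to 516 FPKM over all libraries, as the endothelial label requires, but the defining leukocyte gene Ptprc (CD45) was read in every library too. Values below are FPKM (fragments on a gene relative to gene length and library size) scaled by median-of-ratios factors, and a gene is said to rise or fall where its limma adjusted p was at or under 0.05 over all genes tested. It is counted as called where its log2 fold change, on log2(FPKM + 1), was also at least 1 in size.

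**Figure D1:**
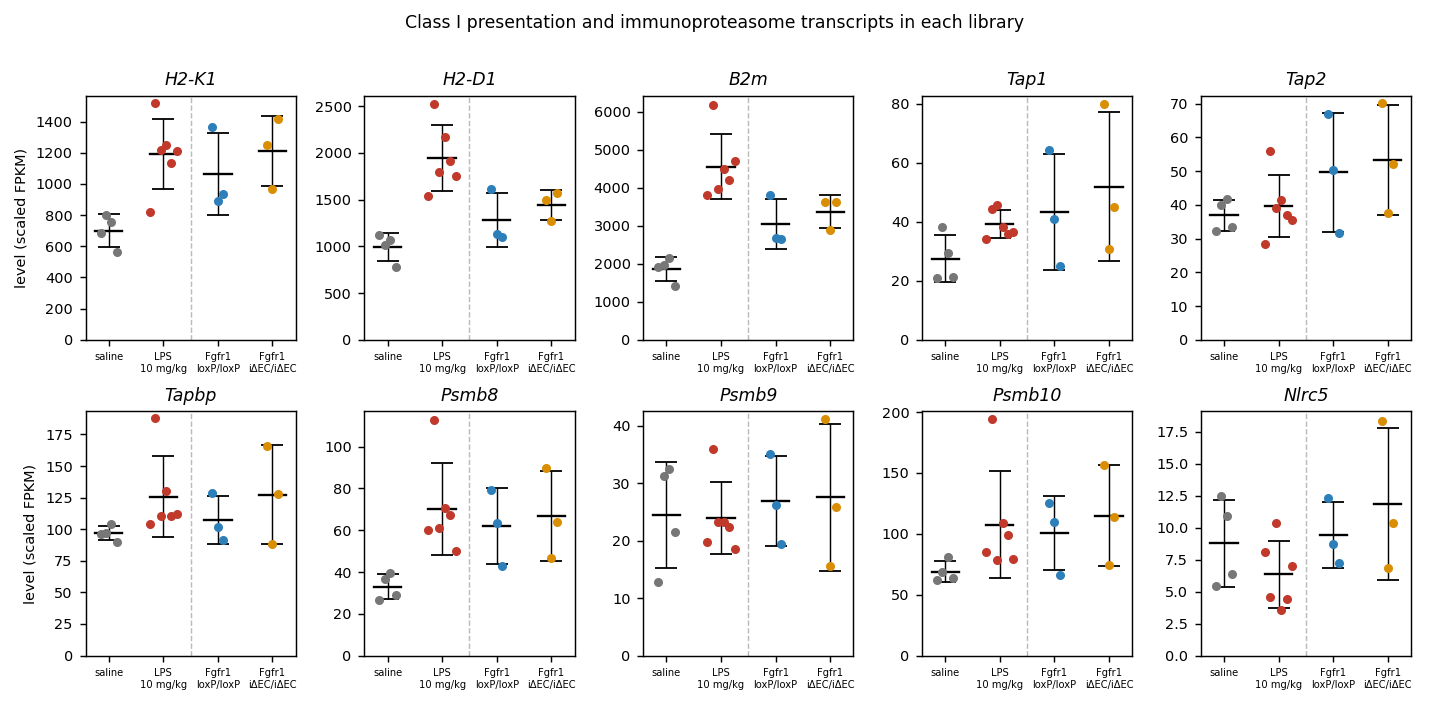
Level of each of the 10 genes in every library, in scaled FPKM on linear axes from 0; points are libraries, long bars are group means and whiskers 1 SD. The dashed line parts the 2 experiments, which were scaled separately; the LPS libraries of H2-K1, H2-D1, B2m and Psmb8 all lie above the saline libraries, and the loxP/loxP and iΔEC/iΔEC points of every gene overlap.

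Transcripts of the class I molecules themselves rose in LPS in the fit reported. H2-K1, H2-D1 and B2m did not pass without a filter on low values, or with same-numbered libraries blocked. Their log2 fold changes there were about as large. With quantile normalization these were 0.38, 0.31 and 0.74 and did not pass either. B2m, the light chain, was read at 1929, 1958, 2166 and 1429 FPKM in saline 1 to 4. In LPS its lowest level was 3801, its median 4350 and its highest 6193 FPKM, so that every LPS library lay above every saline library. B2m rose from 1871 ± 313 (SD, n = 4) to 4562 ± 863 FPKM (SD, n = 6), with a log2 fold change of 1.28 (SE 0.28, limma adjusted p = 0.00306). H2-D1, a classical heavy chain, was read at 1123, 1015, 1066 and 784 FPKM in saline and at a lowest level of 1535, a median of 1855 and a highest of 2526 FPKM in LPS. Its groups did not overlap, and it rose by 0.96 on the log2 scale (SE 0.23, limma adjusted p = 0.00539). H2-K1, the other classical heavy chain, was read at 685, 801, 756 and 561 FPKM in saline, and at 822, 1216 and 1519 FPKM as lowest, median and highest in LPS. Here LPS 1 came within a narrow margin of saline 2, without overlap, and the gene rose by 0.76 (SE 0.22, limma adjusted p = 0.0143). The log2 fold change of the light chain was larger than those of the heavy chains. B2m divided by the sum of H2-K1 and H2-D1, a ratio within each library that a single scaling factor per library cannot change, was 1.07, 1.08, 1.19 and 1.06 in saline 1 to 4 and 1.31 to 1.61 in LPS (median 1.46), again without overlap.

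Of the transport and loading genes, Tap1 rose and Tap2 and Tapbp did not pass. Tap1, a chain of the peptide transporter, was read at 21.1, 38.2, 29.4 and 21.5 FPKM in saline and at 34.3, 37.4 and 45.6 FPKM as lowest, median and highest in LPS. It rose by 0.53 on the log2 scale (SE 0.17, limma adjusted p = 0.0223), although saline 2 lay among the LPS libraries. Tap2, the other chain of the transporter, was read at 32.3, 40.1, 41.6 and 33.3 FPKM in saline and at 28.3, 37.9 and 55.9 FPKM in LPS. The Tap2 groups overlapped fully, with a log2 fold change of 0.08 (95% interval -0.29 to 0.45, limma adjusted p = 0.713). Tapbp, which encodes tapasin, was read at 96.4, 97.1, 104 and 90.3 FPKM in saline and at 104, 111 and 188 FPKM in LPS. Saline 3 and LPS 1 nearly coincided, LPS 2 was far above the rest, and the log2 fold change of 0.34 (95% interval -0.03 to 0.72) did not pass (limma adjusted p = 0.110).

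Of the 3 immunoproteasome subunits, Psmb8 rose and Psmb9 and Psmb10 did not pass. Psmb8 (LMP7) was read at 26.9, 36.6, 39.3 and 28.8 FPKM in saline and at 50.1, 64.0 and 113 FPKM as lowest, median and highest in LPS. All LPS libraries lay above all saline libraries, and Psmb8 rose from 32.9 ± 6.00 (SD, n = 4) to 70.2 ± 21.9 FPKM (SD, n = 6), by 1.04 on the log2 scale (SE 0.21, limma adjusted p = 0.00168). Psmb10 (MECL-1) was read at 62.1, 68.5, 80.9 and 63.9 FPKM in saline and at 78.2, 92.2 and 194 FPKM in LPS. LPS 3 and LPS 6 lay below saline 3, LPS 2 far above all others, and the log2 fold change of 0.56 (SE 0.24) did not pass (limma adjusted p = 0.0646). Without LPS 2 it was lower, at 0.38, but passed, as it did without LPS 3 (0.64) or LPS 6 (0.64). Psmb9 (LMP2), which shares its start region with Tap1, was read at 12.85, 31.2, 32.5 and 21.5 FPKM in saline and at 18.6, 22.8 and 36.0 FPKM in LPS. Saline 1 lay below and LPS 2 above all libraries of the other group, the remaining libraries overlapped, and the log2 fold change was 0.01 (95% interval -0.54 to 0.57, limma adjusted p = 0.965). Without saline 1, its lowest library, the value was -0.25.

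The standard subunits that these 3 replace rose in every case. Psmb5, the standard partner of Psmb8, was read at 46.3, 36.6, 58.2 and 36.1 FPKM in saline and at 109, 174 and 237 FPKM as lowest, median and highest in LPS. It rose by 1.87 on the log2 scale (SE 0.23, limma adjusted p = 7.12e-05). Psmb6, the partner of Psmb9, rose by 1.22 (SE 0.22, limma adjusted p = 0.00101) and Psmb7, the partner of Psmb10, by 1.20 (SE 0.17, limma adjusted p = 0.000177), both without overlap between the groups. The inducible subunit made up less of each pair in LPS, measured as its share of the summed FPKM of the pair, which a single scaling factor per library cannot change. The level of a share depends on the gene lengths behind FPKM, so shares were not compared between pairs. For Psmb9 that length was 3659 bases, and its longest coding transcript has 1352. Psmb8 made up 36.7, 49.99, 40.3 and 44.4% of Psmb8 and Psmb5 in saline 1 to 4, and 25.7 to 33.2% in LPS (median 29.7%). Its mean share was 29.6 ± 3.09% (SD, n = 6) in LPS and 42.8 ± 5.71% (SD, n = 4) in saline, a difference of -13.2 percentage points (p = 0.00952 by a two-sided exact permutation test, the lowest value possible with 6 and 4 libraries, and 0.0286 adjusted over the 3 pairs). Psmb9 made up 21.8, 48.1, 44.1 and 38.6% of Psmb9 and Psmb6 in saline and 16.9 to 25.9% in LPS (median 20.2%). Saline 1 lay among the LPS libraries and the other 3 saline libraries lay above all of them, with a difference of -17.5 points (exact permutation p = 0.0286, adjusted 0.0286). Psmb10 made up 78.4, 84.6, 86.1 and 85.7% of Psmb10 and Psmb7 in saline and 74.1 to 82.9% in LPS (median 75.0%). Only LPS 2 lay above a saline library here, and the difference was -7.51 points (exact permutation p = 0.0190, adjusted 0.0286). With saline 2, 3 or 4 left out, none of the 3 shares passed (adjusted p = 0.0714 each). The adjusted p over all alternatives ran from 0.0238 to 0.125, where 0.125 is the smallest that 4 pairs of libraries can give.

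**Figure D2:**
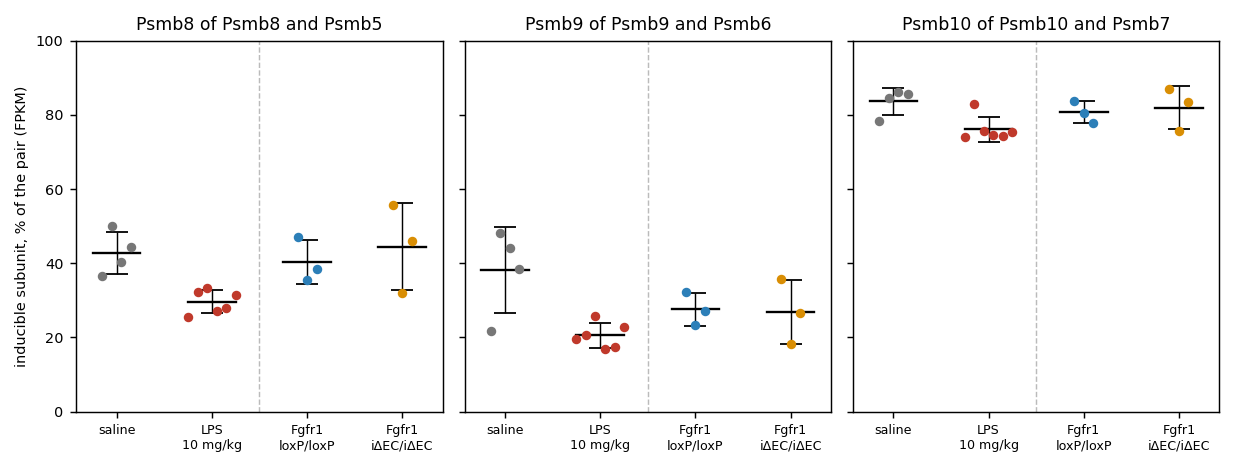
Share of the inducible subunit in each pair of catalytic subunits, in percent of the summed FPKM of the pair, from 0 to 100; points are libraries, long bars group means and whiskers 1 SD. Mean shares of Psmb8, Psmb9 and Psmb10 were 42.8, 38.1 and 83.7% in saline and 29.6, 20.6 and 76.2% in LPS, and the loxP/loxP and iΔEC/iΔEC points overlap in each panel.

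Nlrc5, the class I transactivator, was the lowest of the 10 genes per length in every group. It was read at 5.46, 12.4, 10.9 and 6.36 FPKM in saline and at 3.53, 5.79 and 10.4 FPKM as lowest, median and highest in LPS. The groups overlapped, and its log2 fold change of -0.42 (95% interval -1.06 to 0.22) did not pass (limma adjusted p = 0.239). Irf1, a transcription factor that drives class I and immunoproteasome genes, was read at 37.1, 61.6, 64.7 and 53.4 FPKM in saline and at 29.4, 38.6 and 47.2 FPKM in LPS. It fell by 0.45 on the log2 scale (SE 0.17, limma adjusted p = 0.0470), with saline 1 among the LPS libraries.

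Of the 10 genes, 5 rose in LPS (H2-K1, H2-D1, B2m, Tap1 and Psmb8) and none fell, where 29.5% of all 14893 genes tested rose and 23.7% fell. With the fold limit, 2 of the 10 were called higher (B2m and Psmb8) and 0 lower, beside 11.9% and 6.79% of all genes. For 4 of the 10 the LPS libraries all lay above the saline libraries, and for 0 all below, beside 22.7% and 16.7% of all genes. The median log2 fold change was 0.55 over the 10 genes and 0.01 over all genes tested. At an unadjusted limma p under 0.05, 6 of the 10 and 59.6% of all genes passed. With genes kept only at a mean of at least 5 FPKM, the median log2 fold changes were 0.55 and 0.23. By adjusted p, 5 of the 10 and 61.8% of the genes then passed in either direction. With single libraries left out, the number of the 10 that rose ran from 3 to 6, and it was 3 without saline 4, where H2-K1 (0.65) and Tap1 (0.43) no longer passed. Tap1 no longer passed without saline 1 either (0.42). Without any filter on low values, over 36342 genes, Tap1 and Psmb8 passed, whereas H2-K1, H2-D1 and B2m had the same log2 fold changes but did not pass (limma adjusted p = 0.111, 0.105 and 0.191).

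**Figure D3:**
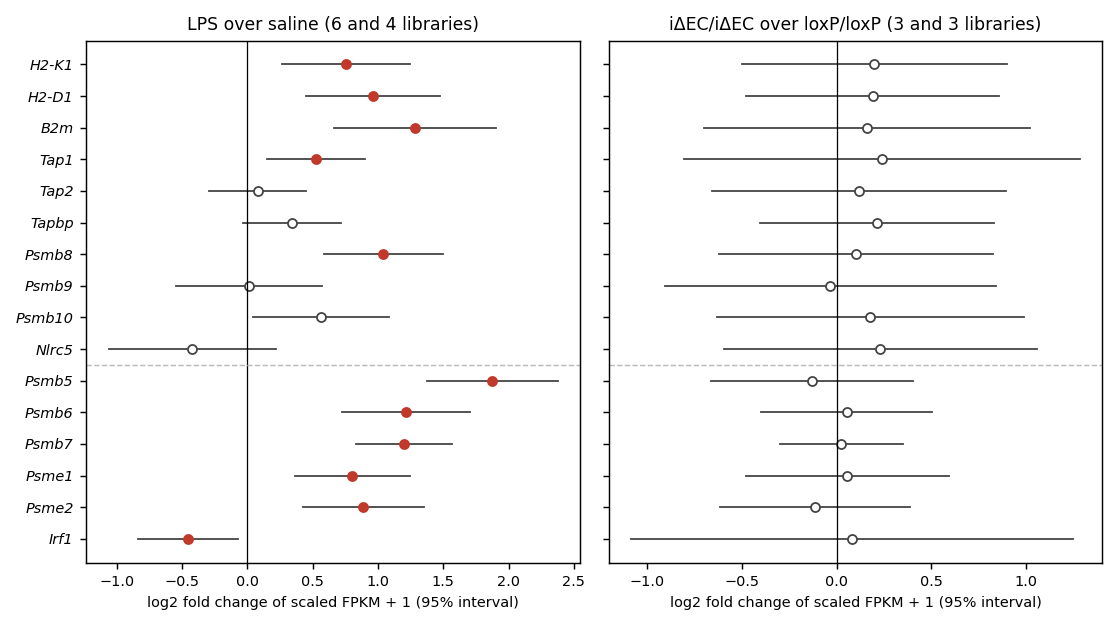
Log2 fold change of scaled FPKM + 1 with its 95% interval for the 10 genes (above the dashed line) and for 6 related genes (below it), in LPS over saline (left) and in iΔEC/iΔEC over loxP/loxP (right). Filled red points passed at a limma adjusted p of 0.05: on the left B2m stands at 1.28, Psmb9 at 0.01 and Psmb5 at 1.87, and on the right no point is filled.

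The size of these changes depended on how libraries were scaled. With libraries scaled by total reads, 4 of the 10 rose (H2-K1, H2-D1, B2m and Psmb8) and the median over the 10 was 0.35, beside -0.15 over all genes. With quantile normalization, which gives every library the same distribution, only Psmb8 rose, the median over the 10 was 0.05, beside -0.08 over all genes, and Tap2, Tapbp, Psmb9, Psmb10 and Nlrc5 were below 0. With libraries scaled on 10 endothelial marker genes, 8 of the 10 rose (all but Psmb9 and Nlrc5), the median over the 10 was 1.17, beside 0.51 over all genes, and Nlrc5 was above 0, at 0.15. Psmb8 rose under each of these scalings, and B2m and Psmb8 had the 2 largest log2 fold changes of the 10 under each.

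**Figure D4:**
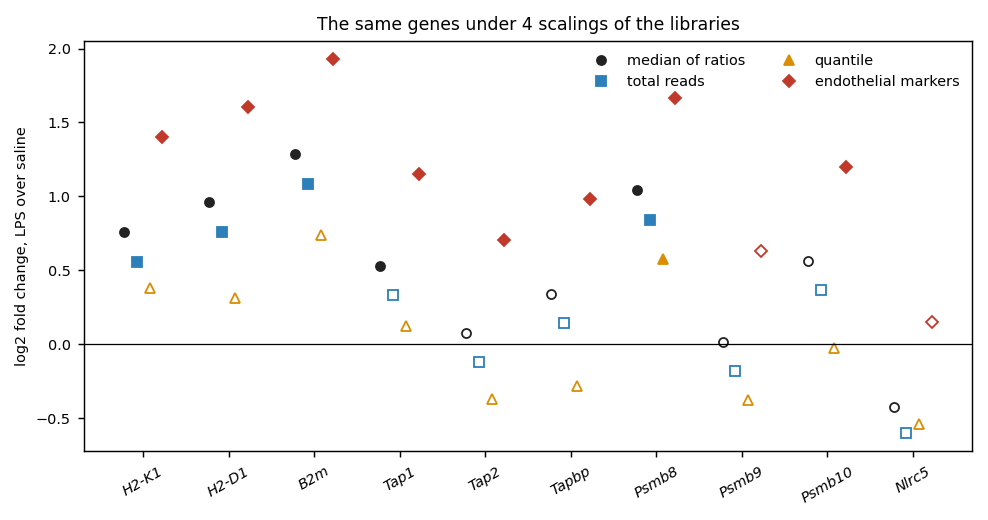
Log2 fold change in LPS over saline of the 10 genes under 4 scalings of the libraries; filled symbols passed at a limma adjusted p of 0.05. The median over the 10 genes is 0.55 with median-of-ratios factors, 0.35 with total reads, 0.05 with quantile normalization and 1.17 with endothelial markers.

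The rest of the class I pathway was read from 5 lists with 59 genes, of which 53 were tested in the first experiment, 24 rose and 4 fell, beside 29.5% and 23.7% of all genes. With the fold limit, 7 were called higher and 2 lower, 13.2% and 3.77% of the 53, beside 11.9% and 6.79% of all genes. The numbers that rose and fell moved with the scaling: 18 rose and 5 fell with total reads, 13 and 8 with quantile normalization and 37 and 2 with endothelial markers. The median log2 fold change over the 53 was 0.33. Among proteasome regulators and standard catalytic subunits, 8 of 9 tested genes rose and none fell, and the largest changes were those of Psmb5 (1.87), Pomp (1.23), the chaperone of proteasome assembly, Psmb6 (1.22) and Psmb7 (1.20). The PA28 activator chains Psme1 (0.80, SE 0.20) and Psme2 (0.89, SE 0.21), which open the proteasome to smaller substrates, rose as well (limma adjusted p = 0.00604 and 0.00472). Among peptide loading and trimming genes, 6 of 11 rose and none fell. The largest changes there were those of Lap3 (0.79) and Tpp2 (0.65), which are cytosolic peptidases, Calr (0.67), the chaperone calreticulin, and Blmh (0.51), also a peptidase.

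Of 13 class I and class I-like heavy chains tested, 3 rose and 2 fell, shares no larger than the 29.5% and 23.7% of all genes. Cd1d1, which presents lipids to NKT cells, fell from 18.6 ± 2.68 (SD, n = 4) to 6.04 ± 1.06 FPKM (SD, n = 6), by 1.48 on the log2 scale (limma adjusted p = 1.54e-05), and its groups did not overlap. Mr1, which presents vitamin B metabolites to MAIT cells, fell by 0.86 (limma adjusted p = 0.00156), also without overlap. H2-Q10 (1.08) and H2-T22 (0.74) rose (limma adjusted p = 0.0219 and 0.0120), but 8.03% and 44.7% of their 50-base windows also occurred in transcripts of other genes, most often H2-Q1 and H2-T10. Of 12 transcription factors, 2 rose and 2 fell, again no larger shares than those of all genes. Ciita, the class II transactivator and a relative of Nlrc5, fell from 4.35 ± 2.62 (SD, n = 4) to 1.08 ± 0.46 FPKM (SD, n = 6), by 1.27 on the log2 scale (limma adjusted p = 0.00215), while Irf9 (0.60), an interferon regulatory factor, and Nfyc (0.46), a subunit of NF-Y, rose. Of 8 tested interferon ligands, receptors and kinases, 5 rose and none fell. They were led by Socs1 (1.19), an inhibitor of JAK kinases, the interferon-gamma receptor chains Ifngr1 (0.99) and Ifngr2 (0.96), and Jak2 (0.88). Ifng itself was near 0, with a highest level of 0.235 FPKM in saline and 0.212 FPKM in LPS, and was not tested.

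Most pan-leukocyte, neutrophil, and monocyte and macrophage markers rose in LPS, whereas those of T and NK, B and dendritic cells did not. All 6 pan-leukocyte markers rose in LPS. Their summed level was 227, 156, 76.5 and 138 FPKM in saline 1 to 4 and 641 to 1554 FPKM in LPS (median 1144), and Coro1a was the most abundant of them in every library. Ptprc was read at 10.99, 7.44, 3.53 and 5.93 FPKM in saline and at 22.1 to 52.7 FPKM in LPS. Of 8 neutrophil markers 6 rose, with sums of 1387, 70.3, 306 and 76.4 FPKM in saline and 1279 to 6609 FPKM in LPS, S100a9 being the most abundant, and with Ly6g listed at 0 in saline 4. Of 8 monocyte and macrophage markers 7 rose, with sums of 1112, 474, 736 and 374 FPKM in saline and 1859 to 4013 FPKM in LPS, Lyz2 being the most abundant, and with Marco listed at 0 in saline 1. Of 10 endothelial markers 5 fell and none rose, with sums of 5478, 3351, 4194 and 3469 FPKM in saline and 1477 to 3538 FPKM in LPS, and Cldn5 was the most abundant of them in every library. None of the 6 tested T and NK cell markers passed (sums 5.92 to 19.8 FPKM in saline and 3.85 to 11.5 in LPS, with Nkg7 the most abundant in all but LPS 3, where Cd3d was). Of 4 B cell markers 3 fell (28.4 to 189 against 21.3 to 65.6 FPKM, with Cd79a the most abundant in saline), the 1 dendritic marker tested, Clec9a, fell (16.8 to 41.2 against 10.1 to 20.7 FPKM; sums of the 4 dendritic markers 17.6 to 41.9 against 10.4 to 20.8 FPKM), 2 of 7 epithelial markers fell (1063 to 2802 against 257 to 924 FPKM, with Sftpc the most abundant), and 4 of 9 fibroblast and mural markers fell (45.8 to 149 against 44.5 to 81.4 FPKM). LPS 2, the library with the highest class I and immunoproteasome levels, also had the highest neutrophil sum (6609 FPKM) and the highest endothelial sum of its group (3538 FPKM), and LPS 1, the lowest for 6 of the 10 genes, had the highest pan-leukocyte sum (1554 FPKM). The part that leukocyte RNA played in the levels of the 10 genes was not tested, and in bulk RNA fewer cells of a type and less RNA per cell cannot be told apart.

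In the second experiment the deleted gene was looked at first. Fgfr1 was read at 2.90, 2.91 and 2.60 FPKM in loxP/loxP 1 to 3 and at 0.682, 1.41 and 1.15 FPKM in iΔEC/iΔEC 1 to 3. The groups did not overlap and followed their labels, with a log2 fold change of -0.88 (SE 0.16), which did not pass over all genes (limma adjusted p = 0.962).

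None of the 10 genes differed between the genotypes beyond the spread of the libraries. B2m was read at 3813, 2688 and 2650 FPKM in loxP/loxP 1 to 3 and at 3617, 2884 and 3626 FPKM in iΔEC/iΔEC 1 to 3, with a log2 fold change of 0.16 (95% interval -0.70 to 1.02, limma adjusted p = 0.975). H2-K1 was read at 1366, 889 and 934 FPKM in loxP/loxP and at 1251, 968 and 1416 FPKM in iΔEC/iΔEC, with a log2 fold change of 0.20 (95% interval -0.50 to 0.90, limma adjusted p = 0.969). Tap1, with the largest fitted log2 fold change of the 10, was read at 64.3, 41.0 and 25.1 FPKM in loxP/loxP and at 79.8, 30.7 and 45.1 FPKM in iΔEC/iΔEC, with a log2 fold change of 0.24 (95% interval -0.80 to 1.29, limma adjusted p = 0.969). Each of these genes had a library of each genotype near the top of its range and another near the bottom. Psmb8 was read at 79.3, 63.4 and 42.9 FPKM in loxP/loxP and at 89.6, 46.7 and 64.1 FPKM in iΔEC/iΔEC. Nlrc5 was read at 12.3, 8.71 and 7.25 FPKM in loxP/loxP and at 18.4, 6.81 and 10.4 FPKM in iΔEC/iΔEC. The intervals of Psmb8 (-0.62 to 0.83) and Nlrc5 (-0.60 to 1.06) span 0, as did those of H2-D1, Tap2, Tapbp, Psmb9 and Psmb10, whose log2 fold changes lay between -0.03 and 0.21. Changes within these intervals remain possible with 3 libraries in each group. The intervals are not limits of detection: Fgfr1, at -0.88 (SE 0.16), did not pass over all genes either (limma adjusted p = 0.962).

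By limma, 0 of the 10 genes passed in either direction, with or without the fold limit, beside 0% of the 14945 genes tested, and 0 of the 10 passed at an unadjusted p under 0.05, beside 4.42% of all genes. The same fit with recovered reads (limma-voom) also called 0. For 0 of the 10 did the groups not overlap, beside 6.02% of all genes with every iΔEC/iΔEC library higher and 4.09% with every one lower. The median log2 fold change was 0.18 over the 10 genes and 0.01 over all genes. With single libraries left out it ran from -0.09 (without iΔEC/iΔEC 1) to 0.36 (without loxP/loxP 1), and with libraries scaled on endothelial markers it was -0.08, with all 10 genes below 0. Of the 59 pathway genes 54 were tested and 0 passed. For 3 of the 54 every iΔEC/iΔEC library was higher and for 0 every one lower, beside 6.02% and 4.09% of all genes. These 3 were Tpp2 (7.96 ± 0.53 against 7.16 ± 0.32 FPKM, SD, n = 3 each), Psme4, a proteasome activator (9.39 ± 0.12 against 8.73 ± 0.40 FPKM), and Nfyb, a subunit of NF-Y (6.81 ± 0.26 against 6.07 ± 0.09 FPKM). Each had a limma adjusted p of 0.962. Psmb5, Psmb6, Psmb7, Psme1, Psme2 and Irf1 had log2 fold changes of -0.13, 0.05, 0.03, 0.06, -0.11 and 0.08. The shares of Psmb8, Psmb9 and Psmb10 in their pairs were 44.5 ± 11.8, 26.9 ± 8.69 and 82.0 ± 5.76% in iΔEC/iΔEC and 40.4 ± 5.93, 27.6 ± 4.45 and 80.7 ± 2.99% in loxP/loxP (SD, n = 3 each; exact permutation p = 0.7, 0.9 and 0.8, adjusted 0.9 each, in a design whose smallest p is 0.1).

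Libraries of the same genotype lay further apart than the means of the genotypes. For all 10 genes the ratio of the highest to the lowest library was larger within loxP/loxP and within iΔEC/iΔEC than the ratio of the means, which ran from 1.02 (Psmb9) to 1.26 (Nlrc5). The standard subunit Psmb7 met this too (1.39 and 1.05 against 1.01). A range over single libraries readily exceeds a ratio of means, so this describes the spread and tests nothing. Tap1 spanned 2.56-fold within loxP/loxP and 2.60-fold within iΔEC/iΔEC, and its means differed 1.19-fold. Over the 6 libraries together Tap1 spanned a 3.18-fold range, from loxP/loxP 3 to iΔEC/iΔEC 1, Nlrc5 2.69-fold, Psmb9 2.65-fold, Psmb10 2.36-fold, Tap2 2.22-fold and Psmb8 2.09-fold. The class I molecules spanned less, with 1.59-fold for H2-K1, 1.47-fold for H2-D1 and 1.44-fold for B2m, as did Psmb7 with 1.39-fold. The 10 genes went up and down together. All 45 pairs of them correlated above 0 over the 6 libraries, with a median Pearson r of 0.90, from 0.62 (H2-D1 and Psmb9) to 0.99 (Tap2 and Psmb8). Over the 10 libraries of the first experiment the median r was 0.62 and 7 of the 45 pairs were below 0, each of them a pair with Nlrc5. These correlations describe the libraries only, since the points of an experiment share 1 table and its scaling and, in the first experiment, hold the difference between saline and LPS.

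**Figure D5:**
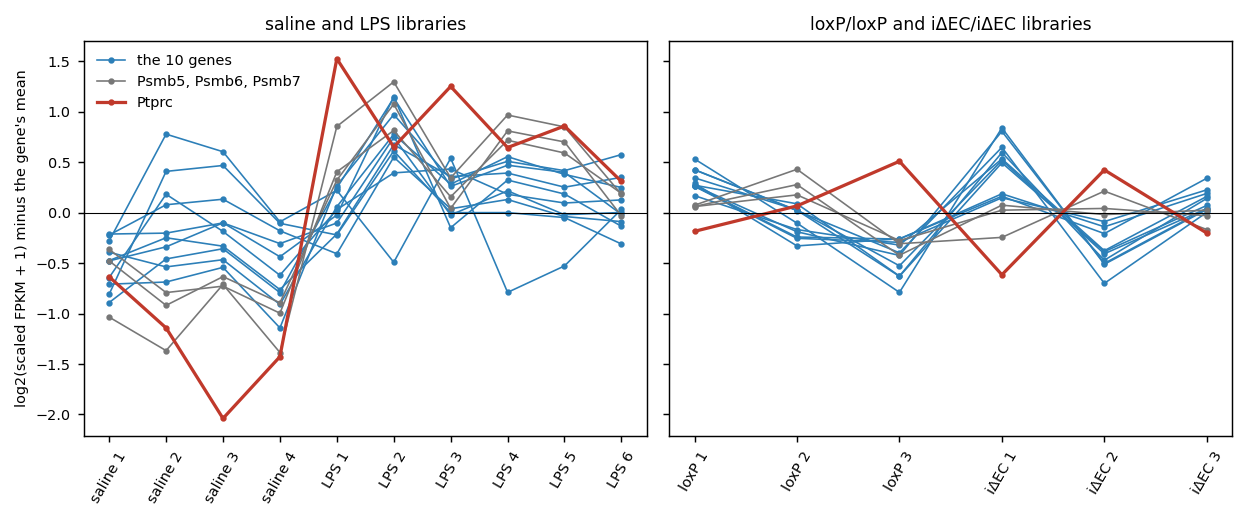
Level of each gene in each library as log2(scaled FPKM + 1) minus the mean of that gene over the libraries of its experiment, for the 10 genes (blue), the standard subunits Psmb5, Psmb6 and Psmb7 (grey) and the leukocyte gene Ptprc (red). On the left Ptprc and most genes are higher in LPS. On the right all 10 blue lines are highest of their group in loxP/loxP 1 (Ptprc at 14.0 FPKM) and lowest of their group in iΔEC/iΔEC 2 (Ptprc at 21.8 FPKM). In iΔEC/iΔEC 1 (Ptprc at 10.1 FPKM) 7 of them are highest of their group, and in loxP/loxP 3 (Ptprc at 23.2 FPKM) 9 are lowest of their group.

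The genes whose profiles were most like the mean of the 10 were named by the highest Pearson r. Among 12839 genes over the 10 libraries of the first experiment they were Ube2l6 (r = 0.97), an enzyme that attaches ISG15, Ifit3 (0.96), an interferon-induced antiviral protein, Psme2 (0.96), H2-T22 (0.95) and Pih1d1 (0.94). Among 12881 genes over the 6 libraries of the second they included Gle1 (r = 1.00), Ifi47 (0.99), Ergic3 (0.99) and Igtp (0.99), of which Ifi47 and Igtp encode interferon-induced GTPases. These values of r are descriptions over few libraries. Another 3 genes were looked at after their values had been seen. Over the 6 libraries Irf1 (r = 0.94) and Pecam1 (0.82) followed the 10 genes, and Ptprc (-0.98) ran against them. Irf1 was read at 77.8, 62.9 and 38.9 FPKM in loxP/loxP 1 to 3 and at 118, 31.6 and 60.3 FPKM in iΔEC/iΔEC 1 to 3, and Ifng at 1.499, 0.329 and 0.256 FPKM and at 1.17, 0.273 and 0.711 FPKM. In both genotypes the library with the most Ifng was also the one with the most Irf1, and it was the highest of its group for all 10 genes in loxP/loxP and for 7 of them in iΔEC/iΔEC. Ifng rested on few reads, 6 to 33 in loxP/loxP libraries and 6 to 25 in iΔEC/iΔEC libraries. The pan-leukocyte sum was 458, 605 and 543 FPKM in loxP/loxP 1 to 3 and 308, 675 and 409 FPKM in iΔEC/iΔEC 1 to 3, the epithelial sum was 908, 1646 and 2898 FPKM and 420, 1086 and 832 FPKM, and the endothelial sum was 3087, 2467 and 2578 FPKM and 3881, 2748 and 3548 FPKM. The T and NK cell sum was 38.3, 24.9 and 25.6 FPKM in loxP/loxP 1 to 3 and 22.7, 24.1 and 19.4 FPKM in iΔEC/iΔEC 1 to 3, with Nkg7 the most abundant in each, and was thus highest in the loxP/loxP library with the most Ifng but not in that of iΔEC/iΔEC. The part of Ifng and of these other cells in the levels of the 10 genes was not tested.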

How the data were processed

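RNA of bead-selected lung ECs was sequenced. Per the labels and the study's methods, the authors aligned reads to GRCm38 (mm10) with HISAT2 2.0.5, counted them on genes with featureCounts 1.5.0-p3 and deposited FPKM in 1 table per experiment. The annotation release, strand setting and treatment of multi-mapped reads were not given in the sources used here. In each library, at least 99.9% of the values were whole multiples of 1 read (tolerance 0.02), which gave reads per gene. The most similar replicates differed by a mean chi-square of 5.06 per gene, so all 16 libraries were kept as separate samples.

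Median-of-ratios factors were applied to the FPKM, which moved them by at most 0.182%, and log2(FPKM + 1) was compared with limma 3.58.1 (R 4.3.3, with the intensity trend), keeping genes whose mean reached 0.5 FPKM, with Benjamini-Hochberg adjustment over all genes tested in each experiment. The fit was also run on simulated data, with an outcome that is not reported here. Fold changes on this scale understate those of low genes. For subunit shares, exact permutation tests (two-sided) of the mean were used (scipy 1.17.1), adjusted over the 3 pairs. The fit was made on FPKM, the deposited unit, and recovered reads entered only the limma-voom alternative; DESeq2, which the study names, was not run. Per list, the 4 genes with the largest log2 fold change among those that passed were named, and in the second experiment the 2 largest whose groups did not overlap. The most-like genes were the 5 with the highest r among genes whose mean reached 1 FPKM; 2 genes that these rules name are not reported here.

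The 10 genes, the lists and the tests were chosen with earlier results of these data known. Same-numbered loxP/loxP and iΔEC/iΔEC libraries deviated together (r = 0.25, 0.18 and 0.19 for numbers 1 to 3), a hint from the data that these numbers pair the libraries; the study's methods call the controls littermates, but which litter gave which library was not given in the sources used here. The values reported are from fits without pairs, and the replicate block was an alternative. Alternatives were another pseudocount (0.1), filters at a mean of 5 FPKM and at any value above 0, 3 other scalings, limma-voom on recovered reads, no fold limit, a replicate block and leaving out each library. Promoter sequences came from RefSeq (GRCm38.p6); Tap2 and Nlrc5 were not matched, and transcripts from GENCODE M21 (GRCm38).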

Additional observations from a re-analysis of the deposited data

Results flagged for a closer look

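Values that stand far from the others of their group were looked for in 44 sets (the 10 genes, the 3 subunit shares and 9 marker sums, in the saline and in the LPS group), of which chance would flag about 1 in 20. By the spacing of values (Dixon's criterion at 95%), 6 were far, 5 of them LPS 2. LPS 2 stood above its group for Tapbp, at 188 FPKM with the next library at 130, for Psmb8, at 113 FPKM with the next at 70.6, for Psmb9, at 36.0 FPKM with the next at 23.3, and for Psmb10, at 194 FPKM with the next at 109. The share of Psmb10 in Psmb10 and Psmb7 was 82.9% in LPS 2 and 75.8% in the next library. Without LPS 2, Psmb8 still rose (0.90 on the log2 scale), Psmb10 passed (0.38), and Psmb9 stood at -0.11. The dendritic marker sum of saline 1 was 17.6 FPKM, below 38.1 FPKM in the next saline library.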

How the results depend on the processing

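Without any filter, 1 of the 10 genes was called higher in LPS, as with total-read scaling and with the replicate block over 4 numbered pairs; with quantile normalization it was 0, with endothelial scaling 6 and with no fold limit 5, against 2 as reported, and 1 to 3 with single libraries left out (1 without LPS 2 or saline 4). Pathway genes called higher numbered 3 with quantile normalization, 25 with endothelial scaling and 24 with no fold limit, against 7, and those called lower 1 with the filter at 5 FPKM, 0 with endothelial scaling, 4 with no fold limit and 1 to 3 with single libraries left out (1 without saline 2), against 2. Over all genes, 1768 were called higher and 1011 lower. Endothelial scaling gave 3974 and 247, no fold limit 4399 and 3529, and the lower calls numbered 518 with the filter at 5 FPKM, 2008 with limma-voom and 1840 with a pseudocount of 0.1. The higher calls made up 63.6% of calls, 48.8% with total-read scaling, 50.6% with quantile normalization and 94.1% with endothelial scaling.

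The same-numbered saline and LPS libraries did not deviate together (r = 0.10, -0.16, -0.21 and -0.12), so the block there is only a check: Tap1 and Psmb8 still passed, H2-K1 (0.76), H2-D1 (0.99) and B2m (1.29) did not (limma adjusted p = 0.138, 0.109 and 0.105), and the share differences were -13.3, -17.3 and -6.88 points for Psmb8, Psmb9 and Psmb10, none past 0.05 since 4 pairs cannot give less than 0.125. With single libraries left out they ran from -15.3 to -10.9, from -23.0 to -14.2 and from -9.28 to -6.71 points. In the second experiment the block changed no call. The shares there ran from -1.37 to 10.4, from -5.19 to 3.50 and from -1.22 to 4.41 points with single libraries left out.

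Log2 fold changes that turned in LPS were those of Tap2 (-0.37 with quantile normalization, -0.12 with total reads, -0.026 to 0.17 with single libraries left out), Tapbp (-0.28, quantile), Psmb9 (-0.37, quantile; -0.18, total reads; -0.25 to 0.17, libraries left out), Psmb10 (-0.029, quantile) and Nlrc5 (0.15, endothelial scaling), none of which had passed. In iΔEC/iΔEC over loxP/loxP, endothelial scaling gave -0.063 for H2-K1, -0.070 for H2-D1, -0.10 for B2m, -0.016 for Tap1, -0.14 for Tap2, -0.047 for Tapbp, -0.16 for Psmb8, -0.081 for Psmb10 and -0.011 for Nlrc5. Leaving out single libraries gave -0.12 to 0.57 for Tap1, -0.16 to 0.36 for Tap2, -0.00094 to 0.45 for Tapbp, -0.13 to 0.33 for Psmb8, -0.36 to 0.31 for Psmb9, -0.091 to 0.46 for Psmb10 and -0.12 to 0.54 for Nlrc5. The causes were not tested. Each of the 10 genes had at least 528 reads in each library. The intervals were fitted from the spread between these libraries, and the effect of depth on them was not tested.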
